A study of Neodesmus pupukensis with 4 samples.

Results

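A set of 286 assembled transcript sequences of a green microalga stood high in the culture harvested at 45 h and then lay below their starting level in both later harvests. They were chosen from 14905 sequences by their own values: a read count averaging 100 or more across the libraries, an RPKM at 45 h at least 2 times that at 14 h, and an RPKM at 57 h and at 88 h each at most 0.5 times that at 14 h. RPKM expresses the reads of a sequence relative to its length and to the library's total. The high level at 45 h and the low levels at 57 h and 88 h are therefore how the sequences were found, and they are given as a description with no test. The alga was strain UTEX2341, called Neodesmus pupukensis in the sample labels and Chlorella minutissima in the series' own design text. All 4 groups were whole cells of this strain from fed-batch shake-flask culture at 25 °C, harvested after 14, 45, 57 and 88 h, with 1 total RNA library for each time and no other treatment in the labels. The series text states the aim of following key enzymes through growth, and the series title sets their expression beside lipid yield. The sources used here do not say whether 1 flask or several gave the 4 harvests.

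As background, a microalga in a flask passes from adaptation through rapid division into a phase of slow growth as light or nutrients run short. Transcripts for photosynthesis, protein synthesis, nutrient uptake and cell division commonly differ between such phases, and many oil-forming algae store triacylglycerol once division slows. The labels give no growth phase for any of the 4 times. The files pair no sequence with a gene name, function, genome position or base sequence, so the selected sequences are described by identifier, length, component and level. A component is a group of assembled sequences whose identifiers share everything but the last number, usually variants of 1 transcript or of close relatives.

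The libraries were of like size, and their stated totals across 14, 45, 57 and 88 h were 12495251, 11874560, 12130407 and 12077745 reads. A single library per time gives no replicate error, so differences below are between libraries, and every interval covers counting error only. In total RNA from a whole culture, fewer cells that carry a transcript and less of it per cell cannot be told apart.

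The sequence floor left 9625 of the 14905 sequences. Of these, 900 were at least 2-fold higher at 45 h than at 14 h, and in 4053 both late levels lay 2-fold or more under the 14 h level. The 286 sequences that met both conditions were 31.8% of the first group and 7.06% of the second. Over all sequences above the floor, 9.35% were at least 2-fold higher at 45 h than at 14 h, 44.5% at least 2-fold lower at 57 h and 46.2% at least 2-fold lower at 88 h, and 2.97% followed the full course. Since the rule used these contrasts, nothing is read from the members' own share. The same course was met by 114 further sequences below the floor, which were left out.

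As a group, the selected sequences had median RPKM values of 16.7, 45.8, 3.21 and 4.14 across 14, 45, 57 and 88 h. Their single values spanned 1.92 to 2264.8 in the 14 h library, 4.52 to 10937.7 in the 45 h library, 0.0784 to 405.8 in the 57 h library and 0.335 to 512.2 in the 88 h library. The 45 h library was thus the highest of the 4 for each of them and the 57 h or 88 h library the lowest, as the rule fixes. Over all 9625 sequences above the floor the median RPKM was 23.9, 23.4, 12.4 and 12.1 in the same order of times. The selected set started below that median at 14 h and lay above it at 45 h.

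**Figure D1:**
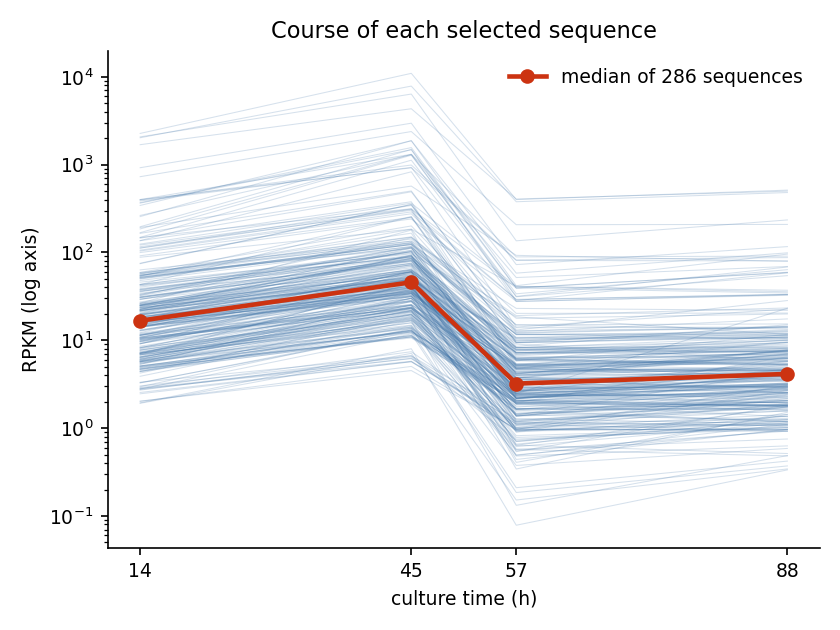
RPKM (log axis) of each of the 286 selected sequences at 14, 45, 57 and 88 h of culture, 1 thin line per sequence, with the median as a thick line. The median goes through 16.7, 45.8, 3.21 and 4.14 RPKM, and the lines cover more than 3 powers of 10 at each time.

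The reads on these sequences made up a sizeable part of the 45 h library and little of the late ones. In the 14 h library they took 437183 of the counted reads, or 2.60% (exact 95% Clopper-Pearson interval 2.59 to 2.61%). In the 45 h library they took 1370073 reads, or 8.46% (8.45 to 8.47%). The 57 h library had 78253 such reads, or 0.499% (0.495 to 0.502%), and the 88 h library 95123, or 0.619% (0.615 to 0.623%). These intervals treat every counted read as independent. The counted reads exceeded the stated library totals, so the intervals may be too narrow. The 10 members with the most reads at 45 h supplied 54.8% of the members' reads at that time and 48.8%, 38.0% and 41.8% at 14, 57 and 88 h. Without these 10, the other 276 members took 1.33%, 3.83%, 0.309% and 0.360% of the counted reads in the libraries of 14, 45, 57 and 88 h. The rule chose every member for this order of levels, so the shares with and without the 10 are a description only.

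**Figure D2:**
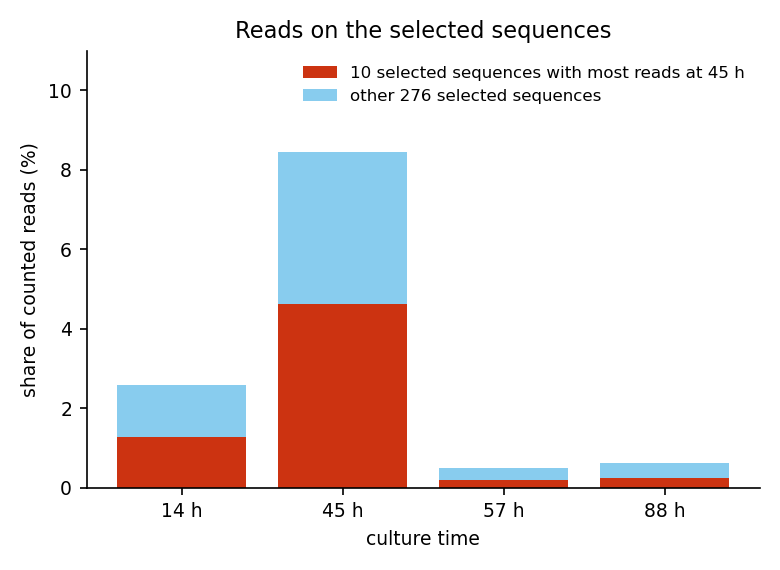
Share of counted reads (%) that fell on the 286 selected sequences in each library, divided into the 10 with the most reads at 45 h and the other 276. The bars reach 2.60%, 8.46%, 0.499% and 0.619% from the earliest to the latest time.

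At the top of the set stood the 3 sequences with the highest RPKM of the whole 45 h library. The first, 1250 bases long and alone in its component, had RPKM values of 2264.8, 10937.7, 400.0 and 512.2 across 14, 45, 57 and 88 h. By RPKM it was number 32 of all 14905 sequences in the 14 h library, number 1 in the 45 h library, number 251 in the 57 h library and number 200 in the 88 h library. The second, 1280 bases long and also alone in its component, had an RPKM of 2022.0, 7829.8, 377.7 and 481.0 at the 4 times. The third, 1523 bases long, had 2069.4, 6353.8, 135.7 and 234.5 RPKM. A second sequence of its component, 2099 bases long, was a member too and followed the same order of times at 921.8, 2960.5, 72.7 and 116.5 RPKM. In all, 19 of the 100 sequences with the highest RPKM at 45 h were members, against 5 of the 100 highest in the 14 h library and 0 of the 100 highest in either late library. Members were 1.92% of all 14905 sequences. The rule chose them for high values at 45 h and low values later, so these counts are a description only.

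The sequences with the largest ratios of 45 h to 14 h were mostly short. Here comp1194_c0_seq1, with a length of 468 bases, had 982, 7110, 192 and 360 reads across 14, 45, 57 and 88 h, which are 167.9, 1279.4, 33.8 and 63.7 RPKM. Between 45 h and 14 h its log2 ratio was 2.93, or 7.62-fold (95% counting interval 2.83 to 3.03 on the log2 scale). The 57 h library was 37.8-fold below the 45 h library, and the 88 h library again 1.88-fold above the 57 h library. The next, comp1400_c0_seq1, of 415 bases, had 1017, 7321, 142 and 294 reads at the 4 times. Between 45 h and 14 h its log2 ratio was 2.92 (2.83 to 3.02), so the counting intervals of the 2 sequences overlapped and they have no order. The 5 members with the largest such ratios, from 2.82 to 2.93, came from 4 components, and 4 of the 5 were between 403 and 468 bases long.

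Among the members lowest at 88 h relative to 45 h, comp231_c0_seq1 and comp4558_c0_seq1 came first. The sequence comp231_c0_seq1, 2659 bases long, had 4523, 11925, 173 and 238 reads across 14, 45, 57 and 88 h, which are 136.1, 377.7, 5.36 and 7.41 RPKM. Its 88 h level was 51.0-fold below its 45 h level and 18.4-fold below its 14 h level, and on the log2 scale the first of these is -5.67 (-5.86 to -5.49). The sequence comp4558_c0_seq1, 764 bases long, had 162, 851, 5 and 17 reads at the 4 times. Between 88 h and 45 h its log2 ratio was also -5.67, but with the wider counting interval of -6.46 to -4.98 that so few late reads give. With 5 reads at 57 h, its log2 ratio of 57 h to 45 h of -7.44 could lie anywhere from -9.07 to -6.21 by counting error.

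**Figure D3:**
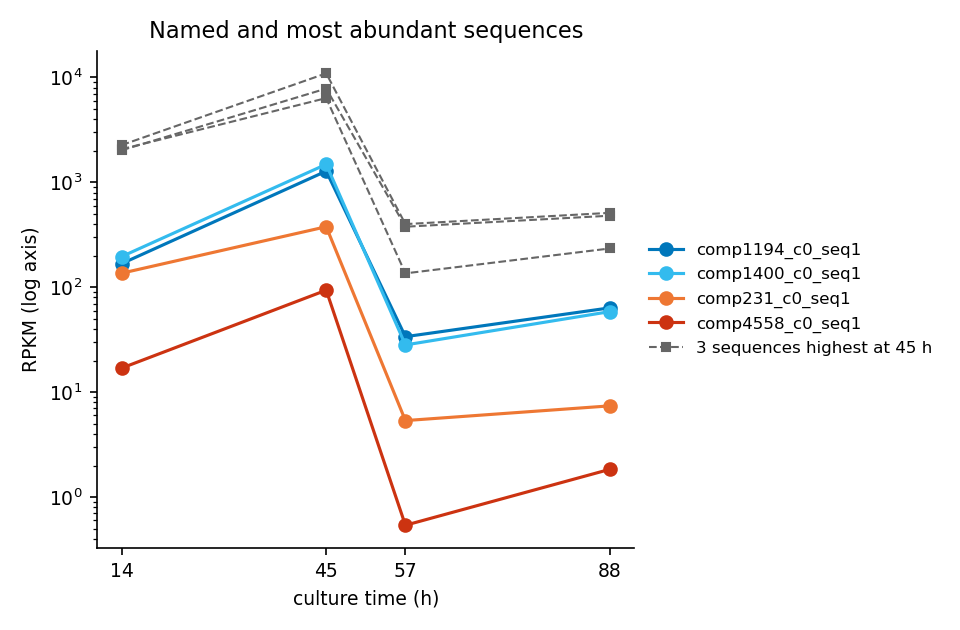
RPKM (log axis) at the 4 culture times of the 4 sequences given by identifier (circles) and of the 3 members with the highest RPKM at 45 h (squares, dashed). Each line peaks at 45 h, from 93.8 RPKM for comp4558_c0_seq1 to 10937.7 for the highest member, and is higher at 88 h than at 57 h.

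Within the set, the height at 45 h and the depth afterwards varied widely. The log2 ratio of 45 h to 14 h had a median of 1.43 and quartiles of 1.20 and 1.76, and 50 of the 286 were at least 4-fold higher at 45 h, a mark passed by 1.32% of all sequences above the floor. The log2 ratio of 57 h to 45 h had a median of -3.66, a 12.6-fold difference, and ran from -7.44 to -2.14. At least 8-fold lower at 57 h than at 45 h were 219 members, where 6.64% of all sequences above the floor were so, and 206 members were that much lower in the 88 h library than in the 45 h library, where 5.81% of all were so. At 57 h, 70 members were at least 8-fold below their 14 h level (7.34% of all sequences above the floor), and at 88 h 30 were (7% of all). The rule sets a 4-fold minimum between 45 h and the late times, and 2-fold differences of that kind were seen in 43.2% of all sequences above the floor for 57 h and 45.3% for 88 h, so these counts describe how far members went past it.

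Members close to the thresholds were common at 45 h. The member nearest to the limit there had an RPKM at 45 h 2.01 times that at 14 h, and the nearest sequence left out had 1.995 times. Within 10% of that limit, 51 sequences lay inside and 39 outside. At 88 h the nearest values were 0.494 times the 14 h level inside and 0.5003 outside, and at 57 h 0.496 inside and 0.503 outside. The member with the fewest reads had a mean of 102.2 over the 4 libraries, and the nearest sequence left out had 98.2. Counting error alone could carry some members across, since 183 of the 286 had all 3 counting intervals wholly past the 2-fold limits.

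From 57 h to 88 h most of the selected sequences were slightly higher again, while most of all sequences above the floor were slightly lower. At 88 h, 223 of the 286 members were above their 57 h level (78.0%), against 40.4% of all 9625 sequences above the floor. The median log2 ratio of 88 h to 57 h was 0.27 for members and -0.07 for all sequences above the floor. At least 2-fold higher at 88 h than at 57 h were 29 members, or 10.1%, where 1.33% of all were so, and 0 members were at least 2-fold lower, where 0.145% of all were so. For 98 members the counting interval of this ratio lay above 0 and for 6 below, where it lay above 0 for 16.8% and below 0 for 29% of all sequences above the floor. Members had a median of 81.5 reads at 57 h, against 338 over all sequences above the floor. The shares are not matched for read depth, and the part of low counts in the 10.1% was not tested. The 3329 sequences that were within 2-fold at 45 h and met the same limits at 57 h and 88 h had a median of -0.06, with 39.8% above their 57 h level and 0.421% at least 2-fold above it. The 243 sequences that were high at 45 h and back within 2-fold at 57 h and 88 h shared the members' direction, with a median of 0.08, 59.3% above their 57 h level and 0.823% at least 2-fold above it. The rule reads both late libraries but not their ratio, and with 1 library each the difference was not tested. With 1 sequence kept per component before the rule was applied, that with the highest mean read count, 160 members remained. Of these, 10.6% were at least 2-fold higher at 88 h than at 57 h. So were 10.6% of the 113 sequences kept that were high at all 3 later times.

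The members furthest above their 14 h level at 45 h also showed the highest ratios of 88 h to 57 h. In the 105 members that were under 2.5-fold higher at 45 h, the median log2 ratio of 88 h to 57 h was 0.13, and 2 of them were at least 2-fold higher at 88 h. In the 131 members between 2.5-fold and 4-fold the median was 0.28, with 9 at least 2-fold higher. In the 50 members at least 4-fold higher at 45 h it was 0.78, with 18 at least 2-fold higher. These 50 were also the lowest at 57 h, with a median log2 ratio to 14 h of -2.61, against -2.19 in the middle class and -1.91 in the lowest class, while the 3 classes were alike at 88 h at -1.94, -1.88 and -1.93. Across the 286 members the Spearman correlation between the log2 ratio of 45 h to 14 h and that of 88 h to 57 h was 0.46, and Pearson's r was 0.48. The points share the 4 libraries, and sequences of 1 component may share reads. Through the 14 h level the rule sets a minimum for the first ratio and caps both levels of the second. With only the member of highest mean read count kept from each of the 185 components, the Spearman value was 0.47. Over the 193 members with at least 50 reads at 57 h it was 0.45. The Spearman value was 0.03 over all 9625 sequences above the floor, with a Pearson's r of 0.16. In the 243 sequences high at 45 h and again less than 2-fold from the 14 h level in both late libraries, the 2 values were 0.39 and 0.34.

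**Figure D4:**
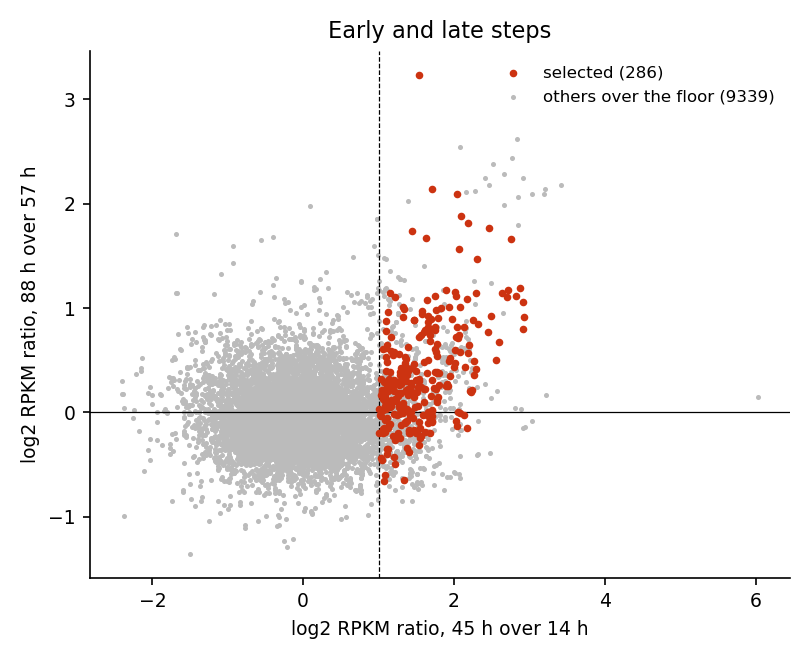
Log2 RPKM ratio of 88 h over 57 h against that of 45 h over 14 h, for the 286 selected sequences (large points) and the other 9339 above the floor (small points). The dashed line marks the 2-fold limit of the rule at 45 h, and 223 of the 286 selected points lie above 0 on the vertical axis.

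The selected sequences were shorter than the others, a property the rule did not use directly. Their median length was 2138.5 bases (quartiles 1268 and 3280.5), against 2474 bases for all sequences above the floor. Under 1000 bases were 52 members, or 18.2%, against 11.3% of all. With 1 sequence per component the gap was smaller, 1855 bases over 160 members against 1980 over 4575 sequences, and 23.8% were under 1000 bases against 15.7%. The 243 sequences that went back to within 2-fold of 14 h had a median of 2334 bases, and the 265 that were high at all 3 later times one of 2131, close to the members'. Of those 265, 17.4% were under 1000 bases. With 1 sequence per component, 113 of them were kept, with a median of 1480 bases and 25.7% under 1000 bases. Shortness was thus not particular to the members. The shorter members also had the lower counts, with a median of 36 reads at 57 h under 1000 bases against 192 in those of 3000 bases or more. Their median log2 ratio of 57 h to 45 h was -4.38, against -3.16 in those of 3000 bases or more, where all sequences above the floor gave -0.68 and -0.67. The part of read depth in this was not tested.

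In abundance the members spread over the whole range above the floor. They were 92 of the 2530 sequences with a mean of 100 to 250 reads (3.64%), 128 of the 4110 from 250 to 1000 (3.11%), 56 of the 2755 from 1000 to 10000 (2.03%) and 10 of the 230 at 10000 or more (4.35%). From the lowest to the highest of these classes, the members' median log2 ratios of 57 h to 45 h were -3.89, -3.35, -3.73 and -4.89. They had no steady order with abundance, and the 10 most abundant members came from 8 components. Across 14, 45, 57 and 88 h the longest member, of 11203 bases, had 634, 1453, 243 and 240 reads, and the shortest, of 366 bases, had 1207, 5643, 230 and 306 reads.

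The 286 sequences belonged to 185 of the 6216 components, so they are fewer independent transcripts than their number. A single member came from each of 120 components, 2 members from each of 50, and 3 or more from each of 15. Members alone in their component numbered 97, or 33.9% (exact 95% Clopper-Pearson interval 28.4 to 39.7%, which treats sequences as independent), against 25.4% of all sequences above the floor. With 1 sequence per component the shares were 60.6% and 53.3%, and the sequences high at all 3 later times had a larger one of 65.5%. The 60.6% covers only the 160 components whose kept sequence was a member, and those dropped all hold several sequences. Of all 185 components with a member, 97 held a single sequence. For all components above the floor it was 2440 of 4575, a similar share, so the higher share of members rests on that choice. In the 65 components with 2 or more members, the members' log2 ratios of 45 h to 14 h lay a median of 0.03 apart, and in 48 of them all members' counts differed by no more than 1.5-fold in each of the 4 libraries. A read that matches several variants may have been counted on each, and its part in this closeness was not tested.

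In most of these components every sequence above the floor followed the course. Of the 87 components with a member and at least 2 sequences above the floor, 53 had only members above it and 34 were mixed. The mixed components held 110 other sequences above the floor, of which 98 were also higher at 45 h than at 14 h, with a median log2 ratio of 0.78. Of these 110, 35 met the 45 h limit but not the late limits, 42 met both late limits but not the 45 h limit, and 33 met neither. Among the components with the most members, 8 each, 1 held sequences of 10844 to 11203 bases with 1453 to 1812 reads at 45 h and 222 to 263 at 57 h. All 8 of its sequences were members.

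One component divided by course. It had 11 sequences above the floor, of which 2 were members, 1528 and 1532 bases long. The shorter member had 14.7, 59.9, 2.70 and 5.85 RPKM across 14, 45, 57 and 88 h, and the longer one 14.8, 60.0, 2.58 and 5.73. The sequence of 3561 bases in the same component had 2.11, 5.30, 7.45 and 9.74 RPKM. It was highest at 88 h, where both members were below their 14 h level. In all, 5 non-member sequences in the members' components were at least 2-fold above 14 h at a late time, and all 5 were in this component.

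The number of sequences 2-fold below the start changed with the scaling. In the deposited RPKM the middle sequence above the floor was lower in the late libraries, with median log2 ratios to 14 h of -0.05, -0.79 and -0.86 across 45, 57 and 88 h. Relative to those medians the selected sequences were 1.48 higher on the log2 scale at 45 h, and their relative log2 ratios were -1.40 for 57 h and -1.06 for 88 h. TMM scaling is a method that centres the bulk of sequences on no change. With it, all 286 members were at least 2-fold higher at 45 h than at 14 h. All 286 were also at least 2-fold lower in both late libraries than in the 45 h library. The rule fixed both counts in advance, because TMM shifts every sequence alike. Its factors were 1.29 at both 14 h and 45 h, 0.794 at 57 h and 0.757 at 88 h. That is too little to bring the rule's 4-fold minimum between 45 h and the late times under 2-fold. With the same scaling 9.36% of all 9625 sequences above the floor were at least 2-fold higher at 45 h than at 14 h, while 24.1% were at least 2-fold lower at 57 h than at 45 h and 23.4% at 88 h than at 45 h. With TMM scaling 197 of the 286 members were at least 2-fold below 14 h at 57 h, where 26% of all were so, and 162 at 88 h, where 25.5% of all were so. The full rule was met by 157 members, and 1.63% of all sequences above the floor met it with that scaling. The highest TMM log2 ratios to 14 h among the 286 were -0.31 at 57 h and -0.25 at 88 h. Each was thus below its 14 h level on both scales. This too was fixed in advance, since the shift is smaller than the rule's 2-fold limit.

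**Figure D5:**
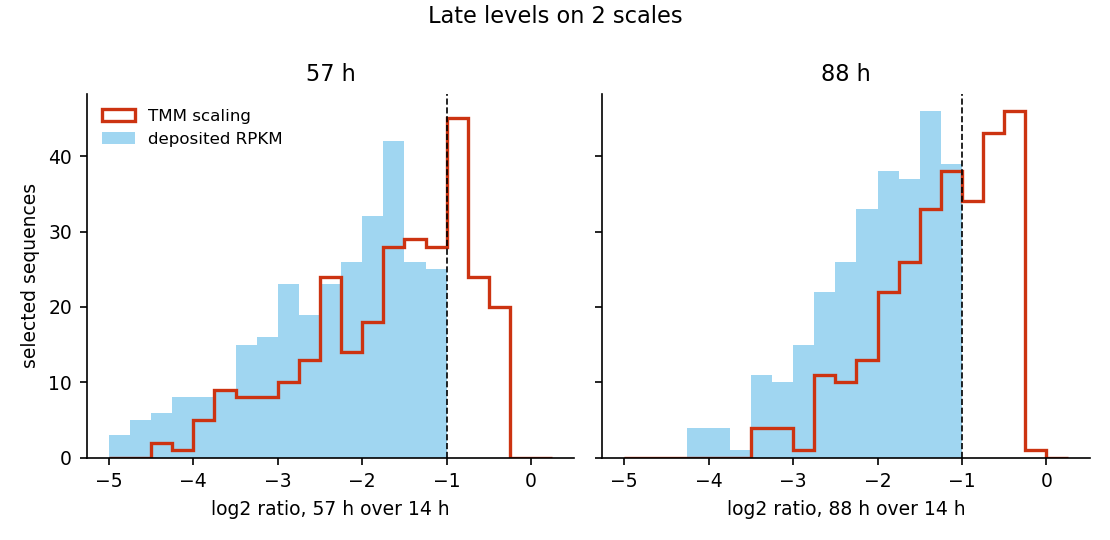
Number of the 286 selected sequences by log2 ratio of 57 h (left) and 88 h (right) over 14 h, on the scale of the deposited RPKM (filled) and with TMM scaling (outline), in bins of 0.25. The dashed line is the 2-fold limit of the rule, and with TMM scaling 197 sequences at 57 h and 162 at 88 h remain at or below it.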

How the data were processed

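Total RNA was taken with TRIzol and made into Illumina libraries, per the labels' protocols, and the submitters' processing notes list the short-read aligner BWA, with neither role nor version. The reference, the assembler, strandedness and the counting of multiply matching reads were not given in the sources used here. Per the file headers, the authors deposited for each sequence a read count, the library's total reads, a length and an RPKM value. The deposited RPKM equalled the count scaled to length and stated total to within 3.8e-11. The counts summed to 1.35, 1.36, 1.29 and 1.27 times the stated totals at 14, 45, 57 and 88 h, for which the files give no reason; shares use the summed counts.

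Groups are the labelled culture times. Members were found on the deposited RPKM and counts, and ratios are RPKM ratios without a pseudocount. The 95% intervals of ratios are exact conditional binomial (Clopper-Pearson) intervals. With 1 library per time no test between times was made. The members and lists were chosen with earlier results of these data known. By rule, the text names the 2 members with the highest ratio of 45 h to 14 h and then the 2 lowest in the ratio of 88 h to 45 h, ranked with 0.5 reads added, 1 per component. Lists of gene names could not be scored. The alternatives were other library scalings, floors, a pseudocount of 5 reads, 3-fold limits, counting intervals and 1 sequence per component. The rule and intervals were run on simulated data with planted changes and counting error only. Those data had no other variation between cultures and no reads counted on several sequences. They therefore cannot show how well the intervals cover in the real libraries. The tools were edgeR 4.0.16 in R 4.3.3 for scaling factors, and matplotlib 3.10.9, scipy 1.17.1, pandas 2.3.3 and numpy 2.4.6 in Python 3.11.15.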

Additional observations from a re-analysis of the deposited data

How the results depend on the processing

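The number of sequences that followed the course, 286, was 157 with TMM scaling and 154 with median-of-ratios factors, both of which centre the typical sequence near no change, 76 with 3-fold limits, 183 when whole counting intervals had to pass 2-fold, and 160 with 1 sequence per component, which enters fewer sequences. The other alternatives gave 215 to 400. Leaving out the criterion at 88 h gave 341 and that at 57 h 294, both chosen after seeing the data. The members' median for 57 h against 45 h, -3.66 on the log2 scale, moved to -5.13 with 3-fold limits and -4.21 with whole intervals, and the median of 88 h to 57 h stayed between 0.26 and 0.68. The median length was 1753 bases with no floor and 1855 with 1 sequence per component, where 60.6% were alone in their component. The 4 named sequences had the same direction at 45 h against 14 h and at 57 h and 88 h against 45 h with TMM, median-of-ratios factors and the pseudocount, the ratios and settings run for them. They were picked for extreme ratios, which were far larger than the shifts between these settings, so a reversal was not possible. Their late ratios were smaller with TMM, for example -4.54 for comp1194_c0_seq1 at 57 h against 45 h. No paired analysis was possible because a single library stands for each time, and for the same reason no library could be left out. Depth limits the sequences with few reads at 57 h most, where the lowest member had 3.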
